A study of Drosophila melanogaster with 800 samples.

Results

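Most genes of the fruit fly Drosophila melanogaster that vary between inbred lines vary in the same direction in females and males. The 29 genes described here did the opposite, most of them weakly: lines with a higher level in females tended to have a lower level in males. They were chosen by 2 conditions. The mean level, in log2 FPKM (fragments scaled to exon length and to library size, on a log2 scale), had to be at least 2 over the female libraries and over the male libraries. The Pearson correlation r between the female and the male line means over 200 lines had to be -0.1 or less. Of 17097 genes with a FlyBase identifier, 7300 met the first condition, and 29 of these (0.397%) met the second. The correlation between the sexes is therefore what chose the genes, and it is given below as a description with no test.

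A gene can have different variants at its regulatory sites in different lines, and the same variant can act in tissues that both sexes share or in tissues that only one sex has. In adult flies the ovary and the testis are the largest sources of RNA that differ between the sexes. The ovary loads eggs with RNA for splicing, translation, nucleotide synthesis and membrane traffic, so many genes with general functions in the cell have a higher level in whole females than in whole males.

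The samples were whole flies of 200 lines of the Drosophila Genetic Reference Panel (DGRP), inbred by 20 generations of full-sib mating from wild-caught females and given no treatment. Mated flies of 3 to 5 days of age, reared at 25 °C on one medium, were pooled as 25 females or 30 males, with 2 replicate pools and thus 2 libraries for each line and sex, 800 libraries in all. A line is a single inbred strain, so its value is that of one genotype. The strand-specific libraries were depleted of ribosomal RNA and held about 7270000 to 87000000 reads, as recovered from the low values (median 26700000 in females and 22300000 in males). The labelled sex could be read from the data in every line: Yp1 (a yolk protein) and Sxl (the switch of female development) were higher in females in 200 of 200 lines, and lncRNA:roX1 and msl-2 (male dosage compensation) were higher in males in 200 of 200 lines.

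Over the 7300 genes the correlation between female and male line means had a median of 0.359, its lowest 5% of genes lay below 0.0529, and it was negative in 149 genes (2.04%). Of the 29 genes, 6 had r of -0.2 or less and only CG43107 had r below -0.3. The median over the 29 genes was -0.149. A 95% interval of r was also taken, with no allowance for the choice of the genes. It reached above 0 in CG5846 (r = -0.135, upper limit 0.00421) and in every one of the 29 genes of weaker r. Just inside the limit of -0.1 lay CG7627 (-0.106) and r-l (-0.102), and just outside it lay CG8944 (-0.0980) and MYPT-75D (-0.0962), so the limit divides a continuous distribution. Each line had 2 libraries of each sex, which gives 4 ways to set a female library against a male one. In 28 genes all 4 gave a negative r, and in pzg 3 of them did. By ranks (Spearman's rho) 28 genes were negative and 19 were at -0.1 or less. The rank value was near 0 for Art3 (-0.0117), CG9123 (-0.0396) and CG7627 (0.0259). For 9 of the 29 genes a single line carried r across the limit: without the line of most weight, r was 0.0317 for CG12316 (line 189) and between -0.0970 and -0.0403 for Madm, CG9107 and wuho (line 634 in each), BHD (line 21), CG11590 (line 440), pzg (line 786), CG7627 (line 832) and r-l (line 721). In the authors' deposited tables of line means, which hold 24 of the 29 genes, all 24 had a negative r and 18 had -0.1 or less. The library pairings, the ranks and the authors' line means come from the same flies as the values that chose the genes. A negative sign was therefore favoured in each of them, and these counts are a description and no independent check.

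**Figure D1:**
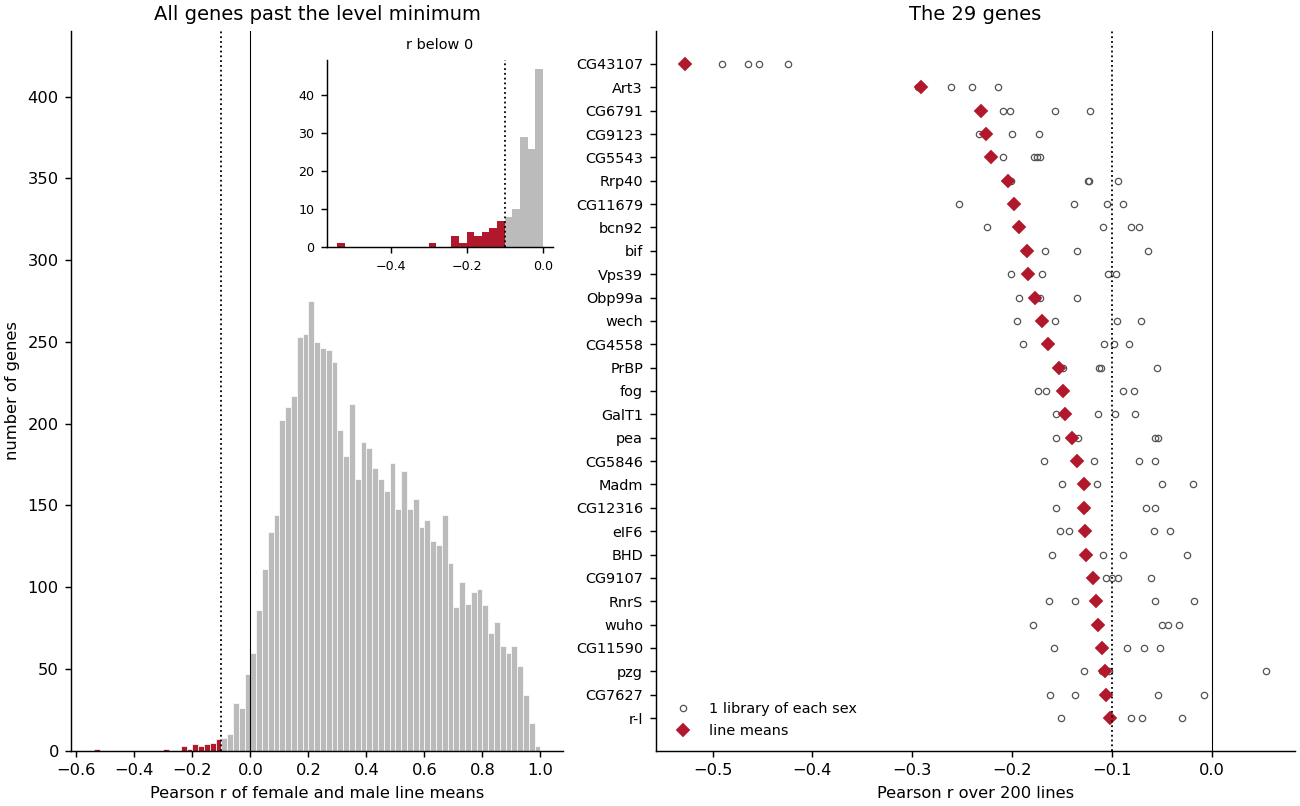
Left, the number of genes by Pearson r of female and male line means over 200 lines, for the 7300 genes past the level minimum, with the 29 genes in red and the genes of negative r enlarged in the inset. Right, r of the 29 genes from line means (diamonds) and from each of the 4 pairings of 1 female with 1 male library (circles), with the limit of -0.1 dotted. CG43107, at -0.528, stands apart from the other 28 genes.

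All 29 genes are annotated as protein coding. On chromosome arms, 8 were on the X chromosome (27.6%, where 15.8% of the genes past the level minimum with a known arm lie), 7 on 2R, 6 on 3R, 5 on 2L, 3 on 3L and none on chromosome 4. Of these genes, 18 have a symbol other than a CG number, and what they are known for falls into several groups. Rrp40 (a cap subunit of the RNA exosome), pea (a DEAH-box splicing helicase) and eIF6 (a factor of large ribosomal subunit assembly) act on RNA or ribosomes. RnrS (the small subunit of ribonucleotide reductase) and r-l (UMP synthase) make nucleotides. Vps39 (a subunit of the HOPS tethering complex), PrBP (a prenyl-binding protein), BHD (the folliculin homolog) and CG7627 (an ABC transporter) act at membranes. The genes fog (a secreted ligand for cell shape change in gastrulation), bif (an actin and phosphatase binding protein) and wech (a TRIM-NHL protein that links integrins to the cytoskeleton) act in cell shape and adhesion. Art3 is an arginine methyltransferase, Obp99a an odorant binding protein, Madm a pseudokinase adaptor, pzg a chromatin protein, wuho a WD-repeat protein needed in the germ line, bcn92 an LYR-motif protein and GalT1 is named as a galactosyltransferase.

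CG43107 (FBgn0262567, 2R) had the lowest correlation of the 7300 genes, r = -0.528 over 200 lines (rho -0.525). In females its line means had a lowest, median and highest value of 3.06, 4.45 and 5.56 log2 FPKM, and in males of 1.73, 3.51 and 4.16. The line highest in females, line 367 at 5.56, had 2.69 in males, well below the male median. The other 3 extreme lines ran against the trend. The line highest in males, line 528 at 4.16, had 4.69 in females, above the female median. The line lowest in females, line 303, had 3.10 in males, and line 101, the lowest in males, had 3.51 in females, both below the median of that sex. The gene is short, with 371 bases of annotated exon, and its line values rest on a median of 221 reads per female library and 94 per male library.

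Art3 (FBgn0038306, 3R; r = -0.291) had female line means from 4.53 to 5.76 around a median of 5.18, and male line means from 2.39 to 4.76 around a median of 3.10. The highest male line, line 642 at 4.76, had 5.08 in females, slightly below the female median. The highest female line, line 634 at 5.76, had 3.09 in males, at the male median. A small set of lines with a high male level is visible as a separate group in the scatter plots, and the rank correlation over all lines was near 0. Without the 2 farthest lines of each sex r was -0.245. It was not computed without the whole group.

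CG9123 (FBgn0030629, X; r = -0.226) had the widest female range but for Obp99a, from -0.00142 in line 356 through a median of 3.55 to 5.12 in line 40, while males ran from 2.27 to 4.11 around 3.06. Line 738 had the highest male level, 4.11, and a female level of 0.37, more than 3 log2 units below the female median. The line lowest in females, line 356, had 3.43 in males. As for Art3, a minority of lines lay apart, here at the low end in females, and the rank correlation was near 0 (rho -0.0396). Without the 2 farthest lines of each sex r was -0.116, and it was not computed without all of the low lines.

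Obp99a (FBgn0039678, 3R; r = -0.177, rho -0.337) varied most of the 29 genes. Female line means ran from 3.55 in line 320 through 7.43 to 9.47 in line 513, and male line means from 3.84 in line 882 through 6.46 to 7.54 in line 804. Line 882 was low in both sexes, at 4.03 in females, and so ran against the main trend. The opposition was stronger by ranks than by r.

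CG5543 (FBgn0034908, 2R; r = -0.221) had female line means from 3.54 to 4.60 (median 4.14) and male line means from 2.00 to 3.74 (median 2.73). Line 359 was highest in males at 3.74 and had 4.05 in females, below the female median. In fog (FBgn0000719, X; r = -0.149), the female values ran from 3.00 in line 361 through 4.5 to 5.27 in line 634, and the male values from 2.53 in line 21 through 3.02 to 3.64 in line 804. Line 634 was thus the highest female line of fog as of Art3, and it had 2.85 in males, below the male median. Line 804 went against the trend, with 4.89 in females, above the female median.

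CG6791 (FBgn0037918, 3R; r = -0.231), Rrp40 (FBgn0260648, 2L; r = -0.204), CG11679 (FBgn0030678, X; r = -0.198), bcn92 (FBgn0013432, X; r = -0.193), bif (FBgn0014133, X; r = -0.185), Vps39 (FBgn0038593, 3R; r = -0.184) and wech (FBgn0259745, 2R; r = -0.170) complete the 12 genes of lowest r. CG6791 had 3.92 to 5.19 in females and 3.22 to 4.0 in males. Its highest male line, line 513, had 4.85 in females, above the female median of 4.52 and so against the trend, while its highest female line, line 354, had 3.31 in males, near the low end. Rrp40 had 3.87 to 4.85 in females and 0.99 to 3.45 in males. Line 808, the highest female line of Rrp40, had 1.51 in males, against a male median of 2.10, but line 395, the highest male line, had 4.67 in females, above the female median of 4.26. Vps39 had 3.19 to 4.32 in females and 2.18 to 3.18 in males, and wech 4.44 to 6.51 and 2.10 to 3.23. In Vps39 the highest male line, line 176, had 3.64 in females, below the female median of 3.76, while the highest female line, line 109, had 2.67 in males, above the male median of 2.61. Over the 29 genes, the highest female line lay below the male median in 23 and the lowest female line above it in 18. The highest male line lay below the female median in 15 genes and the lowest male line above it in 11. All 4 extreme lines followed the trend in 3 genes (CG11679, pzg and CG7627, named after their values were seen). These counts come from the line means that chose the genes and were not taken over other genes, so they are a description.

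**Figure D2:**
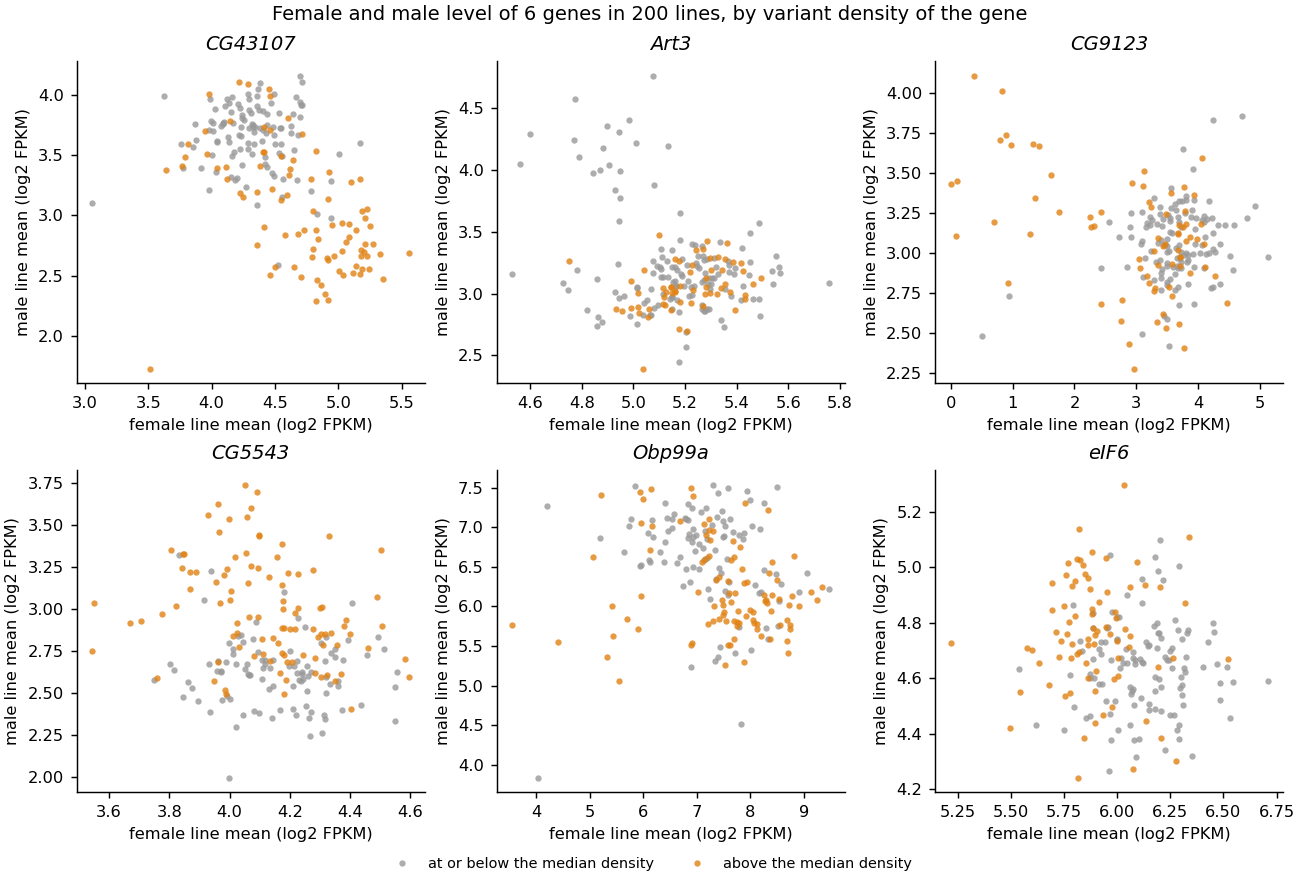
Female line mean (x axis) against male line mean (y axis), both in log2 FPKM, for 6 of the 29 genes, 1 point for each of 200 lines. Orange points are lines whose variant density in the gene is above the median of the gene, grey points the other lines. In CG43107 the orange lines reach the lower right, in Art3 the lines of high male level are all grey, and in CG9123 most lines of low female level are orange.

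Whether lines differed at all was tested within each sex, by the line mean square over the mean square between replicate libraries with limma-moderated variances, which uses no value of the other sex. In females 27 of the 29 genes varied between lines (93.1%, against 95.9% of the genes past the level minimum and 92.2% of all genes tested, at a Benjamini-Hochberg adjusted p below 0.05). In males 25 did (86.2%, against 90.7% and 89.6%), and in both sexes 24 (82.8%, against 88.7% and 85.1%). These shares lie near the background. The exceptions were CG9107 (adjusted p = 0.050) and wuho (0.18) in females, and bcn92 (0.45), Madm (0.98), wuho (0.53) and pzg (1.0) in males. Most of these exceptions depended on the replicate number. In the sex where a gene was not called, its mean in replicate 2 minus that in replicate 1 lay between -0.224 (wuho in females) and -0.160 log2 units (pzg in males). With the replicate number as a block, all 29 genes were called in females (100%, against 98.9% of the genes past the level minimum and 94.6% of all genes tested) and 28 in males (96.6%, against 97.2% and 93.8%). CG9107 (adjusted p = 3.56e-07) and wuho (3.75e-08) were then called in females, and bcn92 (0.00262), Madm (0.0355) and wuho (0.0495) in males, while pzg (0.0816) was not.

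Broad-sense heritability H2, the share of line variance in the sum of line and replicate variance, had a median over the 29 genes of 0.599 in females (0.577 over the genes past the level minimum) and 0.388 in males (0.481). With the replicate number as a block the medians were 0.642 in females (0.622) and 0.402 in males (0.532). It was higher in females than in males for 23 of the 29 genes (79.3%, against 63.8%). In 6 of the 29 genes it was at least 0.5 in both sexes, a smaller share than the 3112 of 7300 genes past the level minimum. The 6 are CG43107 (0.775 in females, 0.699 in males), Art3 (0.661 and 0.808), CG9123 (0.967 and 0.670), CG5543 (0.560 and 0.749), Obp99a (0.906 and 0.868) and fog (0.812 and 0.610). Among the others the balance was uneven. Vps39 had 0.726 in females and 0.396 in males, wech 0.731 and 0.322, CG4558 0.660 and 0.223, and CG6791 0.689 and 0.261. The reverse was seen in CG9107 (0.117 in females, 0.695 in males) and CG11590 (0.455 and 0.717).

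The female-minus-male difference itself varied widely between lines. Its SD over 200 lines had a median of 0.34 log2 units over the 29 genes, against 0.24 over the genes past the level minimum; a negative covariance between the sexes adds to this SD, so the comparison is a description. It was largest in Obp99a (1.29), CG9123 (1.03), CG43107 (0.79), RnrS (0.54), CG11590 (0.52), Art3 (0.48), CG9107 (0.46) and r-l (0.44). In Obp99a the difference ran from -3.05 to 3.30 log2 units between lines, with females higher in 148 lines and males higher in 52. In CG9123 it ran from -3.74 to 2.15, with females higher in 161 lines and males higher in 39. The sex with the higher level therefore changed from line to line in both genes.

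The level of the 29 genes was higher in females as a group. The mean difference over lines was tested with limma on 200 female-minus-male differences. Called at an adjusted p below 0.05 and a size of at least 1 log2 unit, 21 of the 29 genes were higher in females (72.4%, against 30.7% of the genes past the level minimum and 20.8% of all genes tested) and 0 were higher in males (against 10.2% and 37.2%). Without the size limit all 29 passed the test, as did 97.7% of the genes past the level minimum and 98.3% of all genes tested. In whole flies, fewer cells of a type and less RNA per cell cannot be told apart. The median difference over the 29 genes was 1.42 log2 units, against 0.45 over the genes past the level minimum. Of the 29 genes, 20 were higher in females in every one of the 200 lines, which was not counted over other genes. When each library was instead centred on its median gene, the female-minus-male differences of all genes shifted up by 0.54 log2 units, and 25 of the 29 genes were called higher in females (86.2%, against 49.8% of the genes past the level minimum and 31.9% of all genes tested). None was called higher in males (against 2.78% and 25.4%).

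The nucleotide synthesis enzymes had the largest differences among the 29 genes together with a transporter and an adhesion protein. RnrS was at 7.78 ± 0.29 log2 FPKM in females and 2.65 ± 0.42 in males (SD, n = 200 lines), a difference of 5.13 ± 0.04 (SE), and its lowest female line, at 6.77, lay above its highest male line, at 4.29. The ABC transporter CG7627 differed by 3.43 ± 0.03 (6.97 ± 0.30 against 3.54 ± 0.20), UMP synthase r-l by 3.34 ± 0.03 (5.61 ± 0.23 against 2.26 ± 0.35) and wech by 3.30 ± 0.03 (5.78 ± 0.32 against 2.48 ± 0.16). The female and male line means did not overlap in CG7627, r-l or wech either. The same held for others of the 29 genes with smaller differences, such as bif (lowest female line 4.64, highest male line 4.12) and pea (4.43 and 3.20). It was not counted over other genes. RnrS, CG7627, r-l and wech all passed the test at an adjusted p of 4.4e-178 or less (limma).

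RNA and ribosome factors were also higher in females, by 2.20 ± 0.03 for Rrp40, 2.06 ± 0.02 for pea and 1.35 ± 0.02 for eIF6 (SE, n = 200 lines). Among the cell shape genes bif differed by 2.23 ± 0.02 and fog by 1.46 ± 0.02, and the chromatin protein pzg differed by 2.07 ± 0.02. The 8 genes that were not called had differences below 1 log2 unit: Madm 0.95, Obp99a 0.90, CG6791 0.88, CG5846 0.78, BHD and PrBP 0.41 each, CG9123 0.29 and CG11590 -0.27. CG11590 was higher in males in 158 of 200 lines on the deposited scale, and its mean difference was 0.27 in favour of females after centring, so its direction depends on the scale. The calls of CG11679 and bcn92, at 1.04 log2 units each, lay at the size limit and were lost with a pseudocount of 1 FPKM (0.96 and 0.98), and that of bcn92 also without replicate 2 (0.99).

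**Figure D3:**
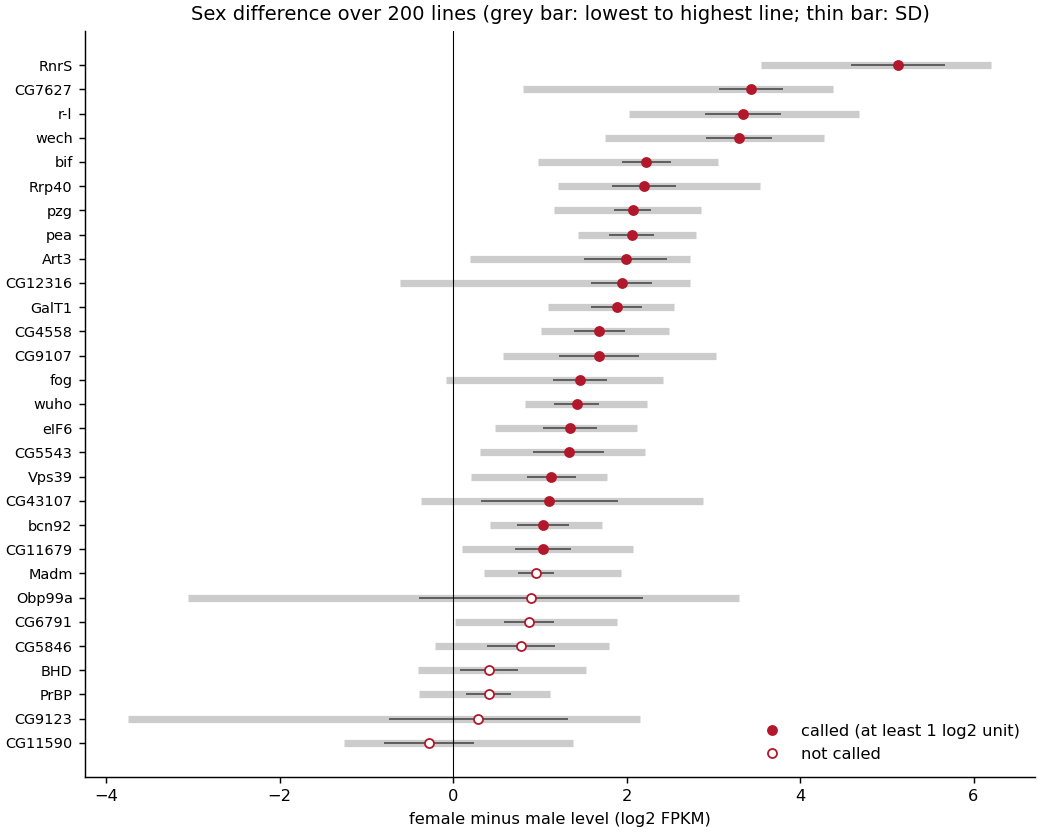
Female minus male level in log2 FPKM for the 29 genes. Points are means over 200 lines, filled where called; thin bars are 1 SD over lines and grey bars run from the lowest to the highest line. RnrS, CG7627, r-l and wech lie above 3 log2 units, and the grey bars of Obp99a and CG9123 reach far to both sides of 0.

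The authors also deposited a variant density per gene and line, which is a measure of genotype that the choice of the genes did not use. The lines were split at the median density of each gene, and the level of lines above the median was compared with that of the other lines in females, in males and for the female-minus-male difference (limma, adjusted over all genes tested). Lines can share variants by descent and neighbouring genes share haplotypes, so an association is with the region and not with a known variant. In females 9 of the 29 genes were called (31%, against 23.9% of the genes past the level minimum and 23.4% of all genes tested). In males 12 were called (41.4%, against 31.8% and 29.9%). For the difference between the sexes 12 were called (41.4%, against 13.2% and 11.8%).

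In 6 genes the level was associated with variant density in both sexes, and in each of the 6 the sign was opposite (20.7% of the 29 genes, against 0.697% of the genes past the level minimum, 49 genes, and 0.689% of all genes tested). None was called in both sexes with the same sign, as 15% of the genes past the level minimum and 14.6% of all genes tested were. A negative r between the sexes favours opposite signs, and 24 of the 29 genes had them whether called or not, so these shares describe the chosen genes and are no test of them. The effect in each sex is a measurement of its own.

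CG43107 had the largest of these effects. The 88 lines above its median density, which are the lines with any variant recorded, averaged 4.71 in females and 3.03 in males, and the 112 lines with none averaged 4.32 and 3.65. Females were thus 0.38 ± 0.05 higher (SE, adjusted p = 6.1e-10) and males 0.62 ± 0.05 lower (adjusted p = 2.9e-21) in lines with a variant, and the sex difference was 1.00 ± 0.09 larger (adjusted p = 3.2e-20, limma). The correlation between the sexes was -0.0426 among the 112 lines without a variant and -0.495 among the 88 lines with one. When the lines were split at the median density of each gene, 18 of the 29 genes, CG43107 among them, had a negative r of any size on both sides. The others did not. Values of CG43107 were also more spread in lines with a variant, in males (SD 0.49 against 0.27) and in females (0.45 against 0.30). The lines with a variant were not alike, as 2 lines chosen after their values were seen show. Line 427 had 5.24 in females and 2.56 in males, and line 217 had 4.28 and 4.09. The effects above are thus means over unlike lines.

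The ribosome factor eIF6 had the opposite orientation. Its 79 lines of high density were 0.23 ± 0.03 lower in females (5.90 against 6.12, adjusted p = 1.8e-11) and 0.11 ± 0.03 higher in males (4.75 against 4.64, adjusted p = 4.1e-04, limma). Its r was 0.0138 among the lines of high density and 0.0163 among the others, while it was -0.126 over all lines. PrBP, which binds prenylated proteins, was 0.08 ± 0.02 higher in females (adjusted p = 0.0067) and 0.18 ± 0.02 lower in males (adjusted p = 9.7e-14, limma) in its 79 lines of high density, and r was -0.107 in these and 0.0210 in the other 121 lines.

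CG5846, CG11679 and BHD showed the same orientation as CG43107 and PrBP. CG5846 was 0.20 ± 0.04 higher in females and 0.12 ± 0.03 lower in males in its 92 lines of high density. CG11679 was 0.16 ± 0.03 higher in females and 0.13 ± 0.03 lower in males in its 75 lines, and BHD 0.08 ± 0.03 higher in females and 0.14 ± 0.04 lower in males in its 72 lines. In BHD the female call was lost without replicate 2 (adjusted p = 0.11, limma) and with centred libraries (0.071), and in CG5846 the male call was lost without replicate 1 (0.11).

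In 6 further genes the difference between the sexes was associated with variant density while only one sex was called. CG9123 was 0.77 ± 0.12 lower in females of its 73 lines with a variant (2.88 against 3.65, adjusted p = 1.2e-07) and males differed by 0.04 ± 0.04 (adjusted p = 0.52, limma). Its r was -0.496 in lines with a variant and 0.279 in the 127 lines without one. CG5543 was 0.37 ± 0.04 higher in males of its 100 lines of high density (2.99 against 2.62, adjusted p = 5.2e-17, limma), and females differed by -0.04 ± 0.03 (adjusted p = 0.39). Obp99a was 0.43 ± 0.09 lower in males (6.2 against 6.63, adjusted p = 1.7e-05), and females were at 7.46 against 7.18 (adjusted p = 0.13, limma).

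Art3 was 0.18 ± 0.06 lower in males of its 60 lines of high density (adjusted p = 0.0094, limma). Its r was 0.30 in these lines and -0.357 in the other 140. Vps39 was 0.10 ± 0.03 higher in females and pea 0.06 ± 0.02 higher in males of high density. The association of Art3 was lost without replicate 1 in males (adjusted p = 0.082, limma) and for the difference (0.15), its difference turned to -0.0478 when lines with any variant were set against lines with none (adjusted p = 0.86), and that of Vps39 for the difference without replicate 2 (0.059) and with centred libraries (0.13). Without replicate 1 the number of genes called in males was 7 in place of 12, with CG12316 (adjusted p = 0.17), GalT1 (0.30) and pea (0.079) also lost, and in females bcn92 (0.10) was lost.

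**Figure D4:**
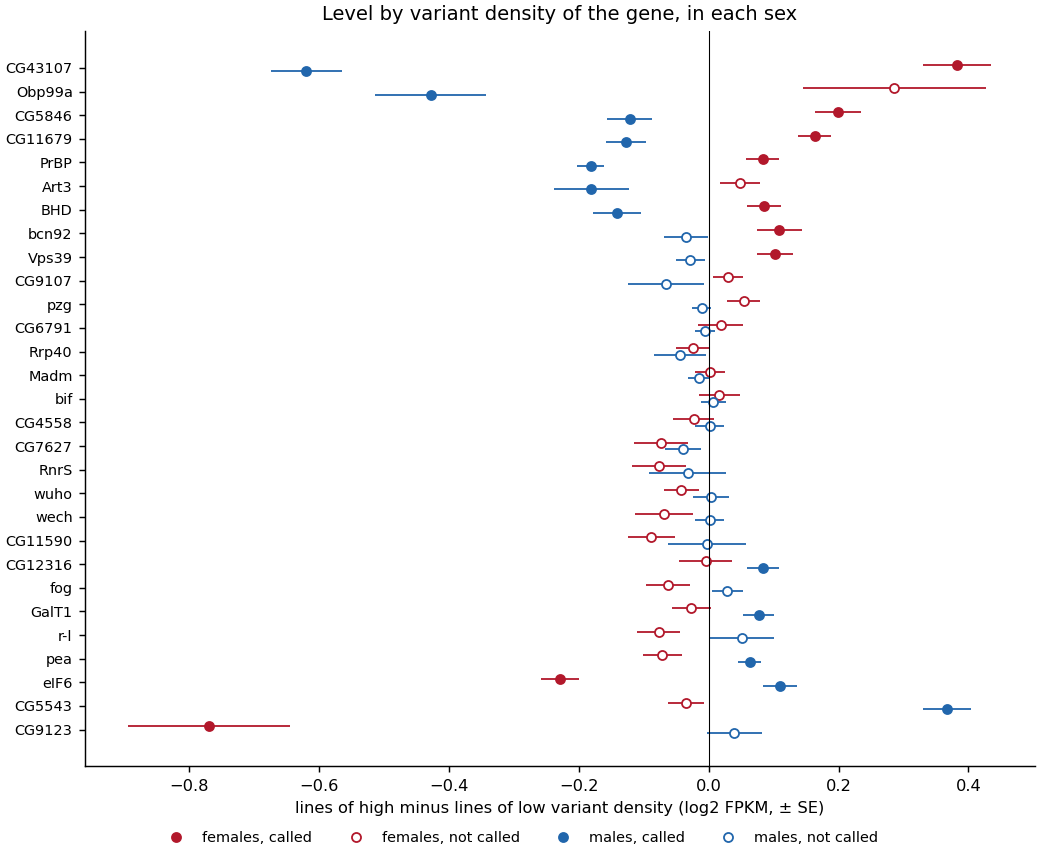
Level of lines above the median variant density of the gene minus that of the other lines, in log2 FPKM with SE over lines, in females (red) and males (blue) for the 29 genes, ordered by the difference between the sexes. Filled points passed the test. CG43107, CG5846, CG11679, PrBP and BHD have filled points on both sides of 0 with females to the right, and eIF6 with females to the left.

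Whole flies mix tissues, so the line means were set beside scores of tissue markers, each score being the mean centred level of the markers over a sex. The female germ line score, from bcd, gus, osk, png, stau and swa (6 of 8 listed markers), ran from -0.68 to 0.64 over lines. In females all 29 genes correlated positively with it, with a median r of 0.616 and a range from 0.128 to 0.873, against a median of 0.402 over the genes past the level minimum. For 22 of the 29 genes r was above that median. Over 58 relations with tissue scores adjusted together, 27 of the 29 in females passed a permutation test at an adjusted p below 0.05 (93.1%). The smallest r that passed in this family had a size of 0.161, and 84.5% of the genes past the level minimum reached that size in females, 62.7% with a positive sign. The exceptions were CG9123 (r = 0.128, permutation p = 0.071, adjusted 0.099) and Obp99a (r = 0.142, permutation p = 0.045, adjusted 0.067).

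The splicing helicase pea followed the female germ line score most closely (r = 0.873, rho 0.866, 0.864 without the 2 farthest lines, permutation p of r and rho 1e-05, the smallest that 100000 permutations can give, adjusted 1.9e-05). RnrS (r = 0.872, rho 0.865, permutation p 1e-05 for both), GalT1 (r = 0.825, rho 0.807), pzg (r = 0.823, rho 0.811) and CG5543 (r = 0.819, rho 0.803) came next, at the same permutation p. CG43107, with the lowest correlation between the sexes, was among the genes least tied to this score (r = 0.268, rho 0.30, permutation p = 1.3e-04 and 2e-05). Scores of neurons, eye and flight muscle had a negative r with all 29 genes in females, with medians of -0.480, -0.314 and -0.256, against -0.325, -0.205 and -0.149 over the genes past the level minimum. The other ovary list, 8 of 8 markers of follicle cells, had a median r of only 0.0843 with the 29 genes in females (from -0.136 to 0.242, against a median of 0.0402). The part of tissue content in the line effects in females was not tested.

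In males the testis score, from 8 of 8 markers, ran from -1.85 to 0.83, and its median r with the 29 genes was 0.0794, against 0.0362 over the genes past the level minimum. It passed the permutation test in 9 genes (31%), 8 with a positive sign, while 36.6% of the genes past the level minimum reached the same size of r, so the count is near the background. The highest were CG9123 (r = 0.50, rho 0.585, 0.576 without the 2 farthest lines), eIF6 (r = 0.431, rho 0.508, 0.515 without them), Art3 (r = 0.326, rho 0.506, 0.333) and CG5846 (r = 0.310, rho 0.352, 0.389), each with a permutation p of 1e-05 for r and rho and an adjusted value of 1.9e-05. The single negative one was fog (r = -0.194, rho -0.189, -0.141, permutation p = 0.0060 and 0.0071, adjusted p = 0.010 for r). CG9123, Art3 and eIF6 thus followed the testis markers in males, and their part in the opposed line effects was not tested. CG43107 did not follow them detectably (r = -0.00710, permutation p = 0.92).

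**Figure D5:**
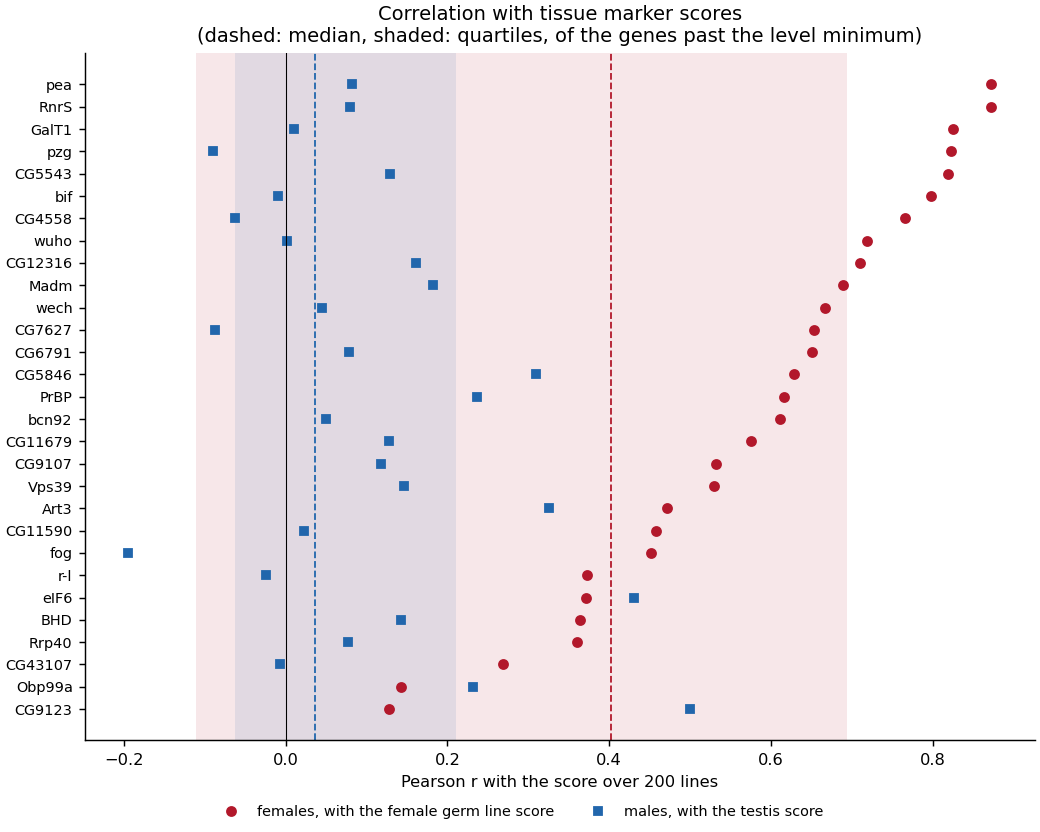
Pearson r over 200 lines of each of the 29 genes with the female germ line score in females (red circles) and with the testis score in males (blue squares). Dashed lines and shading give the median and the quartiles over the genes past the level minimum. All red circles lie above 0, from 0.128 in CG9123 to 0.873 in pea, while most blue squares lie near 0.

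The 29 genes varied together in females and much less so in males. Over their 406 pairs the median r of line means was 0.360 in females, where pairs of genes past the level minimum had a median of 0.0760, and 0.108 in males, against 0.0710. Of the 406 pairs, 103 in females and 1 in males had r of at least 0.5, a limit at which pairs of other genes were not counted. The first principal component held 42.5% of the variance of the 29 genes in females and 16.5% in males. Over 812 relations adjusted together, 348 pairs in females passed a permutation test (85.7%), all with a positive r, and 155 in males (38.2%), 2 of them negative. The smallest r that passed had a size of 0.153, which 60.1% of the pairs of genes past the level minimum reached in females (41% with a positive sign) and 30.2% in males.

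The closest pairs in females joined the splicing helicase pea with CG5543 (r = 0.796, rho 0.782) and with RnrS (r = 0.796, rho 0.791), and GalT1 with RnrS (r = 0.788, rho 0.778), each at a permutation p of 1e-05 for r and rho (adjusted 3.1e-05). In males the same pairs had r of 0.0355, 0.141 and 0.343, with permutation p of 0.62, 0.046 and 1e-05. The closest pair in males was Madm with wuho (r = 0.594, rho 0.587, permutation p 1e-05 for both), although neither gene had line variation called in males without the replicate block. Both values of a pair come from the same libraries, and the part of differences between libraries in these correlations was not tested. The lowest pairs were Obp99a with BHD in females (r = -0.0927, permutation p = 0.19) and wech with wuho in males (r = -0.177, rho -0.151, permutation p = 0.012 and 0.033, adjusted p = 0.021 and 0.051). The next lowest pairs in females were CG9123 with CG11590 (r = 0.00855, permutation p = 0.90) and CG43107 with Vps39 (r = 0.0114, permutation p = 0.87).

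Neighbours in the genome were compared with each gene in the current annotation. In 12 of the 29 genes another measured gene overlapped, and in 9 of these exons overlapped, in each case on the opposite strand. The libraries were made strand-specific, but whether reads were counted by strand is not given in the sources used here, so reads of these 9 genes and of their partners cannot be told apart with certainty. The 9 are CG43107 (with asRNA:CR44386), CG5543 (Nxt1, an mRNA export factor), Rrp40 (Eno, the glycolytic enzyme enolase), bcn92 (Pgd, phosphogluconate dehydrogenase), pea (CG13018), CG5846 (CG4658 and CG4709), BHD (RpL18, a ribosomal protein), wuho (Rpt4, a proteasome subunit) and r-l (AnxB9, an annexin). Over 142 relations with neighbours adjusted together, 41 of 71 passed a permutation test in females (57.7%) and 32 of 71 in males (45.1%), 38 and 28 of them positive. Among the neighbours of all genes past the level minimum, 54.5% in females and 37.6% in males reached the smallest size of r that passed, 0.167, so these shares lie near the background.

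Several of these relations differed in sign or size between the sexes. CG5543 and Nxt1 had r = 0.783 in females (rho 0.757, 0.775 without the 2 farthest lines, permutation p 1e-05) and -0.130 in males. CG5846 and CG4709 had r = 0.602 in females (rho 0.621, 0.618, permutation p 1e-05) and 0.0139 in males. For bcn92 and Pgd r was 0.0886 in females and -0.421 in males (rho -0.431, -0.418 without the 2 farthest lines, permutation p 1e-05). Art3 and its neighbour mRpS10, a mitochondrial ribosomal protein gene, had r = 0.502 in females (rho 0.493, permutation p 1e-05) and -0.424 in males (permutation p 1e-05), but the male rank correlation was -0.00683 (permutation p = 0.92), so the male relation was not seen by ranks. The antisense gene asRNA:CR44386 followed CG43107 in the same direction in both sexes (r = 0.330 in females and 0.427 in males, rho 0.343 and 0.522, permutation p 2e-05 or less). Its mean level was -0.56 log2 FPKM in females and -0.48 in males, far below that of CG43107. The difference of these correlations between the sexes was not tested.

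Of 24 lists of gene families and pathways compared, 2 held a member. Among 18 odorant binding protein genes past the level minimum, the median r between the sexes was 0.628 and only Obp99a was negative. The next lowest was Obp56g (0.0729), and the close relatives by name Obp99b and Obp99c had 0.540 and 0.638. Obp99a was also 1 of the 3 genes of this family with a higher mean in females (0.90 log2 units, with Obp56e 0.41 and Obp57a 0.66), the other 15 having a higher mean in males. With centred libraries 5 had a higher mean in females, Obp18a and Obp56a being added. Among 5 arginine methyltransferase genes, Art3 (-0.291) was the only one below 0, followed by Art1 (0.00613), Art4 (0.116), Art8 (0.258) and Art7 (0.519). All 5 had a higher mean in females, by 1.78 to 3.5 log2 units. Art3 had the highest male H2 of them, 0.808, against 0.190 to 0.438 in the others.

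Partners of Rrp40, r-l and Vps39 in known complexes and pathways, which were looked up after the values of the members were seen, had a positive r. In pyrimidine synthesis r-l (-0.102) acts after r (0.163), the enzyme of the first steps, and Dhod (0.0831), while su(r), an enzyme of pyrimidine breakdown, had 0.561. Among exosome subunits Rrp40 (-0.204) was set beside Csl4 (0.130), Rrp4 (0.422), Mtr3 (0.245), Rrp46 (0.165), Rrp6 (0.149) and Dis3 (0.230). Rrp4, another cap subunit, was 2.02 log2 units higher in females, close to the 2.20 of Rrp40. Vps11, another subunit of the HOPS complex, had 0.400 where Vps39 had -0.184. None of these partners shared the negative sign of the member. Only 149 of the 7300 genes past the level minimum (2.04%) had a negative r, so a positive r is the usual value for any gene. The partners shown are a part of these complexes and pathways.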

How the data were processed

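The authors deposited log2 values for genes and libraries, being FPKM with 0.001 added, as the lowest value of the table (-9.97) shows. The authors also deposited tables of log2 line means for each sex and a score of variant density per gene and line, log2-scaled with the same floor, whose exact unit is not given in the sources used here. Per the submitters' processing notes, the tools were cutadapt, BWA 0.7.10, STAR 2.4.0e, Cufflinks 2.2.1, HTSeq and edgeR, and the builds BDGP5 and dm3. No role or order is given for them, and neither the setting for strand nor the make-up of the sequencing pools is given. The annotation at hand is of another build (BDGP6.54), so no coordinates are printed. It served for symbols, gene types, arms, neighbours and exon lengths. The recovered depths and the reads per gene rest on these exon lengths.

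Depth was recovered from the low values: for 8603 features, 99.9% of the values worth under 20 reads came out as a whole number of reads, with a tolerance of 0.05 reads. Median reads per library ran from 221 to 16040 over the 29 genes in females and from 94 to 2019 in males, and no gene was at the floor in any library. No pair of libraries held identical values.

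Female and male line means were the means of 2 libraries. Tests used limma 3.58.1 in R 4.3.3 on the log2 scale, with genes of a mean of at least 0 and Benjamini-Hochberg adjustment over all genes tested, so fold changes are on the scale of log2 FPKM with that pseudocount. Variant density needed at least 20 lines on each side of the median of the gene. Correlations across lines other than those between the sexes had two-sided permutation tests (100000 permutations). Replicates were separate pools of flies of a line. The scripts were tested on simulated data.

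The 29 genes and the gene lists were chosen with earlier results of these data known. Genes named are the 12 of lowest r, those with H2 of at least 0.5 in both sexes, the 8 with the most variable sex difference, the 3 most extreme in each test or pair and those at the limit of r, besides members of the lists. Other genes named by value were chosen after their values were seen. Alternatives were other pseudocounts, centring, filters, splits, rank correlation, replicates or lines left out, and the authors' line means.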

Additional observations from a re-analysis of the deposited data

Results flagged for a closer look

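In 12 of the 29 genes the association of the level with variant density differed between females and males by a test of the difference itself (limma on the female-minus-male differences of 200 lines, adjusted over all genes tested). The values are the change of the female-minus-male difference, in log2 units, from lines of low to lines of high density. It was 1.00 ± 0.09 (SE) in CG43107, 0.71 ± 0.17 in Obp99a, 0.32 ± 0.05 in CG5846, 0.29 ± 0.04 in CG11679, 0.26 ± 0.03 in PrBP, 0.23 ± 0.07 in Art3, 0.23 ± 0.05 in BHD and 0.13 ± 0.04 in Vps39. In 4 genes it was negative: -0.81 ± 0.14 in CG9123, -0.40 ± 0.05 in CG5543, -0.34 ± 0.04 in eIF6 and -0.13 ± 0.04 in pea. The adjusted p ran from 3.2e-20 in CG43107 to 0.019 in Art3. A negative correlation between the sexes, by which the genes were chosen, favours such differences, so their number is a description of the chosen genes. What lies behind them was not tested.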

How the results depend on the processing

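The number of members by the rule depends on the settings. Under the 13 planned forms it was 70 with libraries centred on their median (25 of the 29 among them), 46 with a level minimum of 0, 4 with a minimum of 4, 6 with r of -0.2 or less, 19 in the authors' line means (18 of the 29, 24 of which are in these tables) and 15 when r was the mean of the same-numbered library pairs, which is the form with the replicate block (all 15 among the 29). Leaving out a replicate gave 17 to 29 genes, of which 13 to 17 were among the 29. The stricter limits leave fewer genes by construction; for the single libraries, the centred libraries and the authors' means the cause was not tested. By ranks 28 genes passed, 19 of them among the 29. With the level of RpL39 removed, an alternative chosen after seeing the data, 29 passed, 27 among the 29.

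The main tests did not treat the replicate numbers as pairs of samples. Deviations of same-numbered female and male libraries correlated above 0.1 in 83 of 200 lines (median 0.0771, from -0.209 to 0.428). Whether same-numbered libraries of the sexes shared a shift was not tested. With the replicate block the sex difference was called in 21 genes, line variation in 29 in females and 28 in males, in place of 27 and 25, and variant density in 9, 12 and 12, equal by construction.

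The number of genes tied to variant density in males was 7 when lines with any variant were set against lines with none, a split that only 11 of the 29 genes allow, and 7 to 12 when a replicate was left out. The correlation between the sexes changed sign for CG12316 without the 2 farthest lines of each sex (0.0191) and without its line of most weight (0.0317), for CG7627 by ranks (0.0259) and for pzg with a replicate left out (-0.109 without replicate 1 and 0.0541 without replicate 2). The sex difference of CG11590 became 0.27 with centred libraries, and the density effect on the difference of Art3 became -0.0478 (adjusted p = 0.86, limma) with any variant against none. The other counts stayed within 1.5 times under every alternative run. Depth limits Rrp40 and CG43107 most, with as few as 14 and 16 reads in a library.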
